A study of Homo sapiens with 7 samples.

Results

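The 35 genes described here make up the ATF4 arm of the integrated stress response: the kinases that start it, its transcription factors, its feedback regulators and the metabolic and secreted proteins that ATF4 induces. They were taken by symbol from a count table of 59251 genes, with tRNA synthetases and amino acid transporters left out, and all 35 passed the filter on low counts. The cells were H9 human embryonic stem cells, an established line, grown in the naive-state medium RSeT and transfected with guide RNA plasmids. The 4 libraries named CTRL and the 3 named DJL1 were compared by RNA-seq 48 h after transfection. The series title concerns LINE1 elements at the distal junctions of ribosomal DNA repeats. The labels name neither the protein that the guides direct nor the plasmid of the CTRL cells. In both groups the medium held 10 nM DZNep, which lowers histone methylation, and 5 nM TSA, a histone deacetylase inhibitor. For the initial 16 h both groups were kept in the CEPT survival cocktail, made of trans-ISRIB (0.7 µM), polyamine, Emricasan and Chroman 1. Trans-ISRIB is a compound that restores eIF2B activity and so blocks the output of the integrated stress response. All values are therefore from cells that had earlier been exposed to an inhibitor of the pathway described, and none is from cells without it.

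In the integrated stress response, kinases that sense heme loss and mitochondrial stress (EIF2AK1), unfolded protein in the endoplasmic reticulum (EIF2AK3) or uncharged tRNA (EIF2AK4) phosphorylate the initiation factor eIF2. General translation falls, whereas the ATF4 mRNA is translated more, so that ATF4 protein can rise without any change in ATF4 mRNA. ATF4 then acts with C/EBP proteins at composite C/EBP-ATF elements to induce further transcription factors, genes of serine and amino acid synthesis, and a phosphatase subunit that reverses the response. The counts measure steady-state poly(A) RNA. ATF4 protein and eIF2 phosphorylation were not measured.

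The composite element links ATF4 to its targets, so the RefSeq promoters of the members (GRCh38.p14, 250 bases before to 50 bases after the start site) were searched on both strands for TGATGNAA, where N is any base. Promoter sequences were matched for 28 of the 35 genes, and 6 of these 28 held the motif in at least 1 promoter, against 4.46% of the 27305 genes and 3.62% of the 35116 promoters in the whole table. EIF2AK1, NUPR1, PSPH, SHMT2, ALDH1L2, GPT2 and PYCR1 had no entry. The stretches around the 6 matches are shown 5′ to 3′ on the strand of the gene, all upstream of the start site, with the motif in capitals. Each was cut at up to 30 bases on either side of the motif.
ASNS: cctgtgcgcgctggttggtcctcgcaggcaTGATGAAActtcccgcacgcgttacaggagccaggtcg
ATF3: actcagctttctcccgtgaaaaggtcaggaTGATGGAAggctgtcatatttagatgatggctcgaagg
CEBPG: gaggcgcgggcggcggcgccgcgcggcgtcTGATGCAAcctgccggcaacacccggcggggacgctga
CHAC1: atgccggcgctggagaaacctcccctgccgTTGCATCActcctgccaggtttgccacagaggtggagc
JDP2: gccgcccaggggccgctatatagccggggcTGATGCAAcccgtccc
PPP1R15B: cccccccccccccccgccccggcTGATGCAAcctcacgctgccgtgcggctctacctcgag
The ASNS stretch lies at chr7:97872439-97872506 on the minus strand, and its motif covers the bases 68 to 61 upstream of the start site. The ATF3 stretch is chr1:212565186-212565253 on the plus strand, with the motif 191 to 184 bases upstream. For CEBPG (chr19:33374041-33374108, plus strand) the motif begins 42 bases upstream, and for JDP2 (chr14:75427976-75428021, plus strand) 16 bases upstream. CHAC1 (chr15:40953232-40953299, plus strand) carries it on the opposite strand, read as TTGCATCA from 209 bases upstream. PPP1R15B (chr1:204412007-204412067, minus strand) carries it from 227 bases upstream. Of these 6 genes, ATF3, JDP2, CHAC1 and CEBPG were higher in DJL1, PPP1R15B was lower, and ASNS, with low counts, was not called. The 28 genes had 42 promoters in the search and were chosen as genes of the ATF4 pathway, so their share is given without a test. Elements outside the 300 bases of each promoter were not searched. A match of these letters is a description of the sequence and does not show that a factor is bound there.

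The depth of the libraries ran from 62277489 to 76691997 counts in CTRL and from 34634882 to 37795742 counts in DJL1, with no overlap of the groups. Libraries varied by 3.46% within CTRL and 13.8% within DJL1, as edgeR's biological coefficient of variation. The labels do not say whether libraries came from separate cultures, so p-values rest on a spread that may be purely technical. No batch is given, so a difference in library preparation or sequencing and an effect of the DJL1 plasmids cannot be told apart. Whether the cells were sorted is unclear, since the labels mention sorting and the design text does not. Pluripotency genes were present in every library, with POU5F1, which encodes OCT4, at 5324 ± 73.1 CPM (SD, n = 4) in CTRL and 5354 ± 269 CPM (SD, n = 3) in DJL1. CPM are counts per 1000000 counts of the library after TMM scaling. NANOG was at 121 ± 1.36 and 85.2 ± 7.66 CPM and SOX2 at 321 ± 6.30 and 245 ± 15.6 CPM in CTRL and DJL1. The naive-state factor KLF17, a gene with few counts, was at 2.48 ± 0.64 and 9.36 ± 3.37 CPM. Of the 6 naive markers listed, 4 were higher in DJL1, KLF17 among them, and 2 were lower. The lower ones were DPPA5 (mean 144.8 CPM in CTRL and 103.1 in DJL1) and TFCP2L1 (mean 37.01 and 31.98 CPM).

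Of the 35 genes 17 were higher and 8 lower in DJL1, and 10 were not called, by the quasi-likelihood test of edgeR at an adjusted p (Benjamini-Hochberg, over 26062 tested genes) under 0.05. Over all tested genes 52.0% were called, 27.0% higher and 25.1% lower. The members' share of calls was 71.4%, which is near the 70.2% found among the 11146 tested genes that averaged 10 CPM or more, a level that 33 of the 35 members reached. The split between directions differed more from that background. Of the members 48.6% were higher and 22.9% lower, whereas of the genes at 10 CPM or more 26.9% were higher and 43.2% lower. Of the 33 members at that level 72.7% were called, 16 higher and 8 lower. The median log2 fold change of the members was 0.10, against 0.01 over all tested genes and -0.09 over those with at least 10 CPM. For the 25 called members no DJL1 value overlapped a CTRL value, and for the 10 others the groups overlapped, where 53.6% of all tested genes did not overlap. The share without overlap was not computed for the genes at 10 CPM or more. Since the members were chosen with earlier results of these data known, these shares are given without a test. In bulk RNA, fewer cells that express a gene and less of its RNA per cell cannot be told apart.

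The median over the whole set joins groups of genes that moved differently. Transcription factors, feedback regulators and secreted proteins were mostly higher, and the biosynthetic enzymes mostly were not. Among the 21 kinases, factors, regulators and secreted or membrane proteins 16 were higher and 3 lower, with a median log2 fold change of 0.56. Among the 14 genes of biosynthetic enzymes and tRNA export, 1 was higher and 5 lower, with a median of -0.04. Of all tested genes at 10 CPM or more 26.9% were higher and 43.2% lower, with a median of -0.09. The 3 kinases, 1 of them higher and 1 lower, were counted among the 21 genes. The difference between the 21 and the 14 genes was not tested. In individual DJL1 libraries the median log2 ratio to the CTRL mean was 0.51, 0.62 and 0.62 for the 21 genes. For the 14 genes it was -0.04, -0.12 and 0.01.

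**Figure D1:**
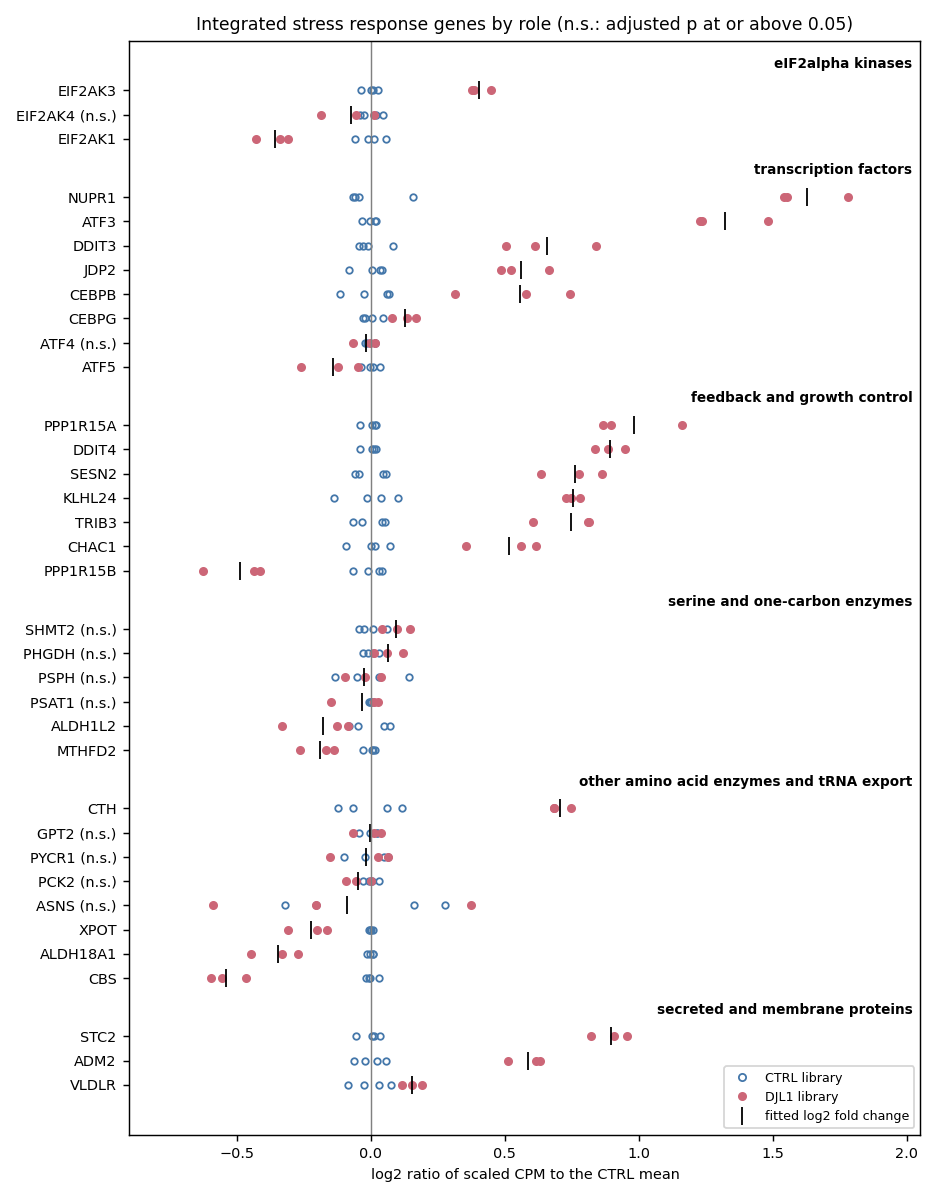
Each row is 1 of the 35 genes, grouped by role, and the x axis is the log2 ratio of scaled CPM to the CTRL mean. Open blue points are the 4 CTRL libraries, filled red points the 3 DJL1 libraries, black ticks the fitted log2 fold changes, and n.s. marks genes with an adjusted p at or above 0.05. The DJL1 points lie right of all CTRL points for 17 genes, most of them transcription factors and feedback regulators, and left of them for 8.

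The 3 kinases of the set went in different directions. EIF2AK3 (PERK), the kinase of the endoplasmic reticulum, stood at 38.8, 37.2, 38.2 and 38.4 CPM in the CTRL libraries and at 49.6, 49.8 and 52.0 CPM in the DJL1 libraries. Every DJL1 library was above every CTRL library, and the rise was 0.40 ± 0.05 (SE) on the log2 scale (edgeR, adjusted p = 2.3e-06). EIF2AK1 (HRI), which relays heme and mitochondrial stress, stood at 100.3, 103, 98.7 and 95.4 CPM in CTRL and at 78.6, 74.0 and 80.3 CPM in DJL1. It was lower in all 3 DJL1 libraries, with a log2 fold change of -0.36 ± 0.04 (edgeR, adjusted p = 6.5e-06). EIF2AK4 (GCN2), the sensor of uncharged tRNA, stood at 85.0, 84.1, 87.6 and 89.3 CPM in CTRL and at 76.1, 83.2 and 87.2 CPM in DJL1. Its groups overlapped and its log2 fold change of -0.07 ± 0.05 was not called (edgeR, adjusted p = 0.219), although without DJL1 replicate 3 it was -0.13 and passed the test (adjusted p = 0.030). EIF2AK1 overlaps AIMP2 on chromosome 7 and EIF2AK3 overlaps EIF2AK3-AS1 and EIF2AK3-DT on chromosome 2. In RefSeq 13 of the 35 members overlap another protein-coding or long noncoding gene, among the called ones also ATF5, DDIT3, CEBPB, JDP2, KLHL24, MTHFD2, ALDH1L2 and VLDLR. The strand setting of the counting is not given, so reads in the overlaps could be assigned either way.

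ATF4 itself did not differ between the groups beyond the spread of the libraries. It stood at 407, 407, 399 and 396 CPM in CTRL and at 384, 406 and 401 CPM in DJL1, with a log2 fold change of -0.02 ± 0.04 (edgeR, adjusted p = 0.720). The values of the groups interleave, and over the 16 alternative analyses the log2 fold change ran from -0.05 to 0.01, without a call in any of them. Per kilobase of transcript ATF4 had the highest level of the 35 genes, at 199 scaled CPM per kilobase in CTRL and 197 in DJL1. CBS followed in CTRL at 163 and PSAT1 at 91.2. ASNS had the lowest counted value at 0.43, which cannot be read as a low level of its mRNA, since the RefSeq gene CZ1P-ASNS spans it. The processed pseudogenes ATF4P3 and ATF4P4 held 661 to 1522 counts in each library beside 14245 to 30910 for ATF4, so a small part of the reads of this gene may lie in other rows. ATF4 is encoded on chromosome 22 (39520559 to 39522686, GRCh38.p14).

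Of the 8 transcription factor genes 6 were higher and 1 was lower in DJL1. ATF3, a stress-induced bZIP factor that acts downstream of ATF4 and is also induced by p53, stood at 86.3, 84.4, 87.4 and 87.5 CPM in CTRL. In DJL1 it reached 203, 242 and 203 CPM, more than every CTRL library, a rise of 1.32 ± 0.05 (SE) on the log2 scale (edgeR, adjusted p = 8.5e-11). This was 2.50-fold, and ATF3 and NUPR1 were the 2 members called with at least a 2-fold rise, which 10.7% of all tested genes showed. At 10 CPM or more, 368 of 11146 tested genes were called with at least a 2-fold change in either direction. Of the 33 members at that level 1 was. NUPR1, a small chromatin-associated stress protein gene, was much less abundant, at 3.34, 2.91, 2.86 and 2.88 CPM in CTRL and 8.79, 10.3 and 8.71 CPM in DJL1. Its rise of 1.63 ± 0.11 (edgeR, adjusted p = 1.7e-08) was the highest log2 fold change of the 35 genes.

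DDIT3, which encodes CHOP, the factor linked to cell death under lasting stress, stood at 52.6, 48.2, 48.7 and 49.3 CPM in CTRL and 76.0, 89.0 and 70.5 CPM in DJL1. All DJL1 libraries were higher, by 0.66 ± 0.06 on the log2 scale (edgeR, adjusted p = 5.4e-07), and DDIT3 overlaps MARS1 on chromosome 12. CEBPB, a C/EBP factor that dimerises with ATF4 and CHOP, rose from 20.5 ± 1.20 to 30.1 ± 4.43 CPM. JDP2, a bZIP repressor related to ATF3, rose from 20.9 ± 0.81 to 30.7 ± 2.04 CPM. The log2 fold changes of CEBPB and JDP2 were both 0.56. CEBPG, the small C/EBP partner of ATF4, was higher by only 0.13 ± 0.04 (92.8 ± 2.17 to 101 ± 3.21 CPM, edgeR, adjusted p = 0.015), and this call was lost without a filter (0.10, adjusted p = 0.113). ATF5, whose mRNA is translationally controlled in the manner of ATF4, was lower by a small amount, with a log2 fold change of -0.14 ± 0.05 (83.4 ± 1.75 to 75.7 ± 5.55 CPM, edgeR, adjusted p = 0.025). That call did not hold when CTRL replicate 1, 2 or 4 or DJL1 replicate 1 was left out, with log2 fold changes of -0.14, -0.13, -0.14 and -0.09 and an adjusted p from 0.058 to 0.073. It was also lost with the stricter filter (-0.11, adjusted p = 0.061).

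**Figure D2:**
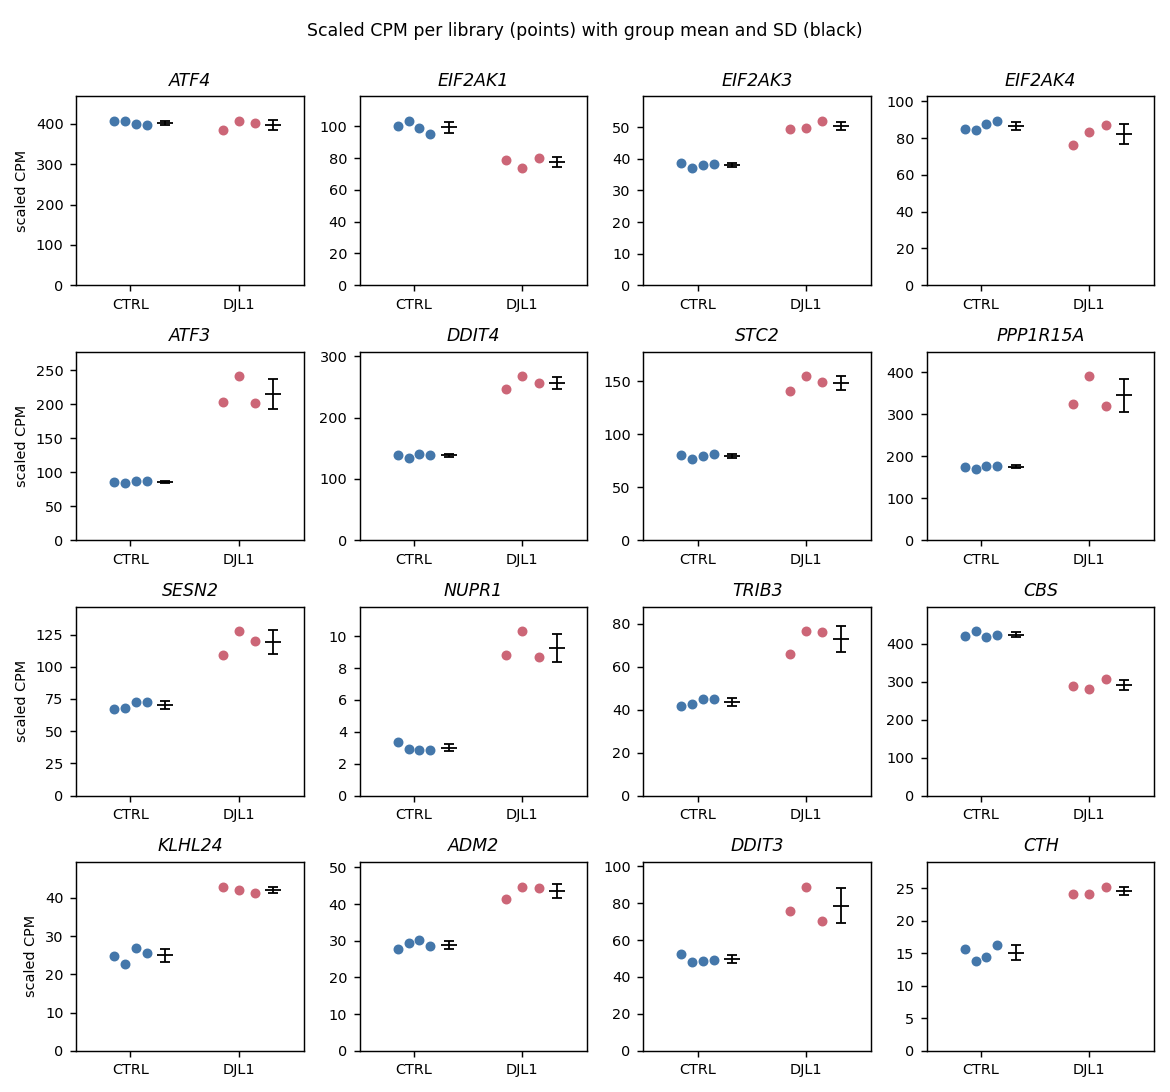
Scaled CPM (y axes start at 0) of ATF4, the 3 kinase genes and the 12 members with the smallest adjusted p, by group. Points are libraries, and black marks are the group mean with its SD (CTRL n = 4, DJL1 n = 3). ATF4 and EIF2AK4 overlap between groups, CBS and EIF2AK1 are lower in DJL1, and the other panels show all 3 DJL1 libraries above all 4 CTRL libraries.

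Of the 7 feedback and growth control genes 6 were higher and 1 was lower. PPP1R15A (GADD34), the inducible subunit that directs protein phosphatase 1 to eIF2 and so ends the response, stood at 176, 170, 177 and 177 CPM in CTRL. In DJL1 it was at 326, 391 and 319 CPM, above all CTRL libraries, a rise of 0.98 ± 0.06 on the log2 scale (edgeR, adjusted p = 2.7e-09). PPP1R15B (CReP), the constitutive subunit with the same enzyme partner, went the other way, from 86.3, 88.8, 89.3 and 83.0 CPM in CTRL to 64.3, 65.3 and 56.3 CPM in DJL1. All 3 DJL1 libraries were below CTRL, with a log2 fold change of -0.49 ± 0.05 (edgeR, adjusted p = 1.6e-06). The inducible subunit was thus higher and the constitutive subunit lower in every DJL1 library. Per kilobase of transcript PPP1R15A was at 73.6 and PPP1R15B at 16.6 in CTRL, and in DJL1 at 145 and 11.9.

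DDIT4 (REDD1), an inhibitor of mTORC1 that p53 and hypoxia also induce, stood at 140, 135, 140 and 139 CPM in CTRL and 247, 267 and 255 CPM in DJL1. This was a rise of 0.89 ± 0.04 on the log2 scale (edgeR, adjusted p = 1.5e-10), with a narrow spread in both groups. SESN2, a leucine sensor upstream of mTORC1 and also a p53 target, stood at 67.4, 68.0, 72.9 and 72.4 CPM in CTRL and 109, 127 and 120 CPM in DJL1, a rise of 0.76 ± 0.05 (edgeR, adjusted p = 1.4e-08). TRIB3, a pseudokinase that binds ATF4 and restrains it, stood at 41.6, 42.6, 45.1 and 44.9 CPM in CTRL and 66.2, 76.5 and 76.4 CPM in DJL1. Its rise was 0.75 ± 0.06 (edgeR, adjusted p = 3.1e-08), with DJL1 replicate 1 the lowest of the DJL1 libraries and still above CTRL. KLHL24, a Kelch-family adaptor of a ubiquitin ligase, went from 24.8, 22.8, 26.8 and 25.7 CPM in CTRL to 43.0, 42.0 and 41.4 CPM in DJL1, a rise of 0.75 ± 0.06 (edgeR, adjusted p = 5.0e-08). CHAC1, which degrades glutathione and is often used as a readout of ATF4 and CHOP, rose less, from 18.4 ± 0.86 to 26.3 ± 2.43 CPM (log2 fold change 0.52 ± 0.07, edgeR, adjusted p = 1.6e-05).

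The serine and one-carbon enzymes are a main metabolic output of ATF4. With all 7 libraries, TMM scaling, unthinned counts and the filter on low counts described here, none of them was called higher. Of the 6 genes 0 were higher and 2 lower by edgeR, DESeq2 called 0 higher and 2 lower, limma-voom also 0 and 2, and limma-voom with a variance for each group 0 and 1. At an unadjusted p under 0.05 in edgeR 1 was higher. With the stricter filter (1 CPM in at least 3 libraries) 2 were called higher, PHGDH (0.09, adjusted p = 0.032) and SHMT2 (0.13, adjusted p = 0.011), as in the authors' deposited table. PHGDH, which catalyses the initial step of serine synthesis, stood at 230 ± 3.86 CPM in CTRL and at 240 ± 9.14 in DJL1. This difference was not called (log2 fold change 0.06 ± 0.04, edgeR, adjusted p = 0.178). PSAT1, the next enzyme, stood at 199, 200, 200 and 199 CPM in CTRL and 201, 180 and 204 CPM in DJL1, where the DJL1 values lie on both sides of CTRL. PSPH, the final enzyme of the branch, was at 22.4 ± 1.83 and 22.0 ± 1.01 CPM. SHMT2, the mitochondrial enzyme that passes the carbon of serine to folate, stood at 181 ± 5.75 and 194 ± 7.0 CPM, a log2 fold change of 0.10 ± 0.04 that missed the threshold (edgeR, adjusted p = 0.062). SHMT2 passed under 5 alternatives, the stricter filter among them. The others were scaling by library size alone (0.11, edgeR, adjusted p = 0.021) and thinned counts (0.10, adjusted p = 0.046). It also passed without CTRL replicate 4 (0.12, adjusted p = 0.045) and without DJL1 replicate 1 (0.11, adjusted p = 0.035). MTHFD2, the next mitochondrial folate enzyme, fell from 222 ± 2.82 to 195 ± 8.94 CPM (log2 fold change -0.19 ± 0.04, edgeR, adjusted p = 0.00092). ALDH1L2, which oxidises formyl-folate in mitochondria, had a log2 fold change of -0.18 ± 0.07 (30.4 ± 1.58 to 26.9 ± 2.39 CPM, edgeR, adjusted p = 0.036). That call was lost without CTRL replicate 1 (-0.16, adjusted p = 0.103), CTRL replicate 3 (-0.15, adjusted p = 0.109) or DJL1 replicate 3 (-0.11, adjusted p = 0.130), and under 4 other alternatives, thinned counts among them (-0.16, adjusted p = 0.077).

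Of the 8 other amino acid genes, with the tRNA exporter XPOT among them, 1 was higher and 3 were lower. CTH, the enzyme that releases cysteine from cystathionine, stood at 15.7, 13.8, 14.4 and 16.3 CPM in CTRL and 24.2, 24.1 and 25.2 CPM in DJL1. Its rise was 0.70 ± 0.07 on the log2 scale (adjusted p = 5.9e-07). CBS, the enzyme just before it in the same route from homocysteine, stood at 421, 432, 418 and 423 CPM in CTRL and 288, 280 and 307 CPM in DJL1. CBS was lower in all DJL1 libraries, with a log2 fold change of -0.54 ± 0.04 (edgeR, adjusted p = 3.2e-08), the lowest of the 35 genes. The mRNAs for the 2 consecutive steps of transsulfuration therefore went in opposite directions, and enzyme activity was not measured. ALDH18A1, which starts proline synthesis from glutamate, fell from 114 ± 0.85 to 90.0 ± 5.54 CPM (log2 fold change -0.35 ± 0.04). XPOT, which exports mature tRNA from the nucleus, fell from 231 ± 1.10 to 198 ± 10.2 CPM (-0.22 ± 0.04).

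The other members of that group were not called. PYCR1, the final proline enzyme, stood at 34.2 ± 1.77 and 33.8 ± 2.64 CPM, and the alanine aminotransferase gene GPT2 at 70.0 ± 1.54 and 69.7 ± 2.65 CPM. PCK2, the mitochondrial form of phosphoenolpyruvate carboxykinase, was at 52.0 ± 0.90 and 50.3 ± 1.65 CPM. ASNS, asparagine synthetase and a standard ATF4 target, had 1.14, 1.24, 0.88 and 0.82 CPM in CTRL and 0.68, 0.88 and 1.32 CPM in DJL1, from 26 to 94 counts per library. Its log2 fold change of -0.09 ± 0.28 (edgeR, adjusted p = 0.816) has the widest error of the set. The RefSeq gene CZ1P-ASNS spans ASNS on chromosome 7 and had only 7 to 30 counts itself. The labels do not say how reads that fall in both genes were counted, so the low ASNS count cannot be read as a low level of its mRNA. Without ASNS the median of the other 34 members was 0.11.

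The 3 genes of secreted and membrane proteins were all higher. STC2, a secreted glycoprotein of the stanniocalcin family, stood at 80.4, 76.8, 79.8 and 81.6 CPM in CTRL and 141, 155 and 149 CPM in DJL1. Each DJL1 library was well above CTRL, and the rise was 0.90 ± 0.04 on the log2 scale (edgeR, adjusted p = 3.3e-10). ADM2, a peptide hormone of the adrenomedullin family, stood at 27.7, 29.4, 30.1 and 28.5 CPM in CTRL and 41.3, 44.8 and 44.3 CPM in DJL1, a rise of 0.59 ± 0.05 (edgeR, adjusted p = 2.0e-07). VLDLR, a lipoprotein receptor, was higher by 0.15 ± 0.06 (26.3 ± 1.27 to 29.3 ± 0.77 CPM, edgeR, adjusted p = 0.031). The VLDLR call was lost without CTRL replicate 1 (0.13, adjusted p = 0.102), CTRL replicate 2 (0.14, adjusted p = 0.086), DJL1 replicate 2 (0.14, adjusted p = 0.059) or DJL1 replicate 3 (0.13, adjusted p = 0.092), in thinned counts (0.13, adjusted p = 0.069), without a filter (0.12, adjusted p = 0.138) and by limma-voom with a variance for each group (0.16, adjusted p = 0.078).

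**Figure D3:**
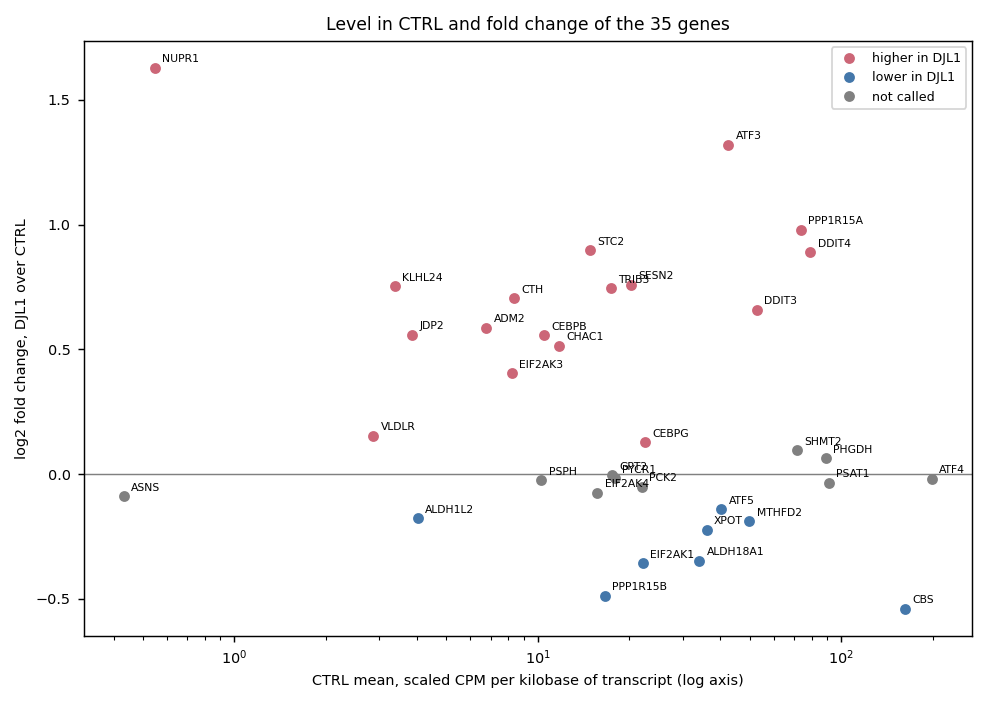
The x axis is the CTRL mean in scaled CPM per kilobase of transcript on a log axis and the y axis the log2 fold change of DJL1 over CTRL, with 1 labelled point for each of the 35 genes. Red points are called higher, blue points lower and grey points not called. Genes called higher occur from NUPR1 at 0.55 to DDIT4 at 79.2 CPM per kilobase, and ATF4 at 199 lies near 0.

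Genes of the pathway outside the set were counted in 3 fixed lists. Of 16 genes for eIF2, its exchange factor eIF2B and regulators of the kinases, 2 were higher and 9 lower (median log2 fold change -0.19), beside the 26.9% higher and 43.2% lower among all tested genes at 10 CPM or more. EIF2S3, the gamma subunit of eIF2, fell from 511 ± 7.13 to 333 ± 29.5 CPM (log2 fold change -0.62 ± 0.05). EIF2S1, the alpha subunit that the kinases phosphorylate, stood at 113 ± 2.31 and 112 ± 4.82 CPM (-0.02, edgeR, adjusted p = 0.655). DELE1, the relay from mitochondria to the EIF2AK1 kinase, and GCN1, the activator of EIF2AK4, had log2 fold changes of -0.61 and -0.37. DNAJC3, a chaperone of the endoplasmic reticulum that restrains EIF2AK3, rose by 0.38. EIF2B2, a subunit of eIF2B, rose by 0.17, a call lost without CTRL replicate 2 (0.15, adjusted p = 0.063) or DJL1 replicate 2 (0.10, adjusted p = 0.112).

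EIF2AK2 (PKR), the eIF2 kinase activated by double-stranded RNA, is induced by interferon. It stood at 38.4, 37.0, 38.9 and 35.9 CPM in CTRL and at 48.6, 34.3 and 42.1 CPM in DJL1. DJL1 replicate 2 was below every CTRL library and the other DJL1 libraries above, so the log2 fold change of 0.15 ± 0.08 was not called (edgeR, adjusted p = 0.140). Without DJL1 replicate 2 it was 0.26 ± 0.06 and passed the test (adjusted p = 0.0019). Of the 17 members that rose, 11 had their highest DJL1 value in the same replicate 2, and of the 8 that fell, 5 had their lowest value there. Without it 16 members were higher and 8 lower.

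Of 20 neighbouring genes of serine, glycine, folate and proline metabolism, 1 was higher and 11 lower (median -0.34), where 43.2% of all tested genes at 10 CPM or more were lower. MTHFD1, the cytosolic folate enzyme, fell from 208 ± 3.68 to 130 ± 16.3 CPM (log2 fold change -0.68 ± 0.06). PRODH, which breaks proline down, rose from 475 ± 12.1 to 587 ± 37.0 CPM (0.30 ± 0.04).

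Of 16 other reported targets of ATF4 or CHOP, 15 were higher and 0 lower by edgeR (median 0.94), beside 27.0% higher over all tested genes. This list, like the other lists, was chosen with earlier results of these data known. At an unadjusted p under 0.05 edgeR called 15 higher and 0 lower, and DESeq2 and limma-voom each called 0 lower. GDF15, a stress cytokine, rose from 48.4 ± 2.27 to 156 ± 19.4 CPM (log2 fold change 1.69 ± 0.07). TNFRSF10B, the death receptor DR5, rose by 1.09 and CDKN1A, the cell cycle inhibitor p21, by 0.95. These 3 genes belong to 6 on the list that p53 also induces, all 6 of which were higher with a median of 1.14. Of the 10 others 9 were higher, with a median of 0.78, a split made after the values were seen. ERO1A, an oxidase of the endoplasmic reticulum, was the gene not called (54.8 ± 0.73 and 55.7 ± 1.74 CPM).

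**Figure D4:**
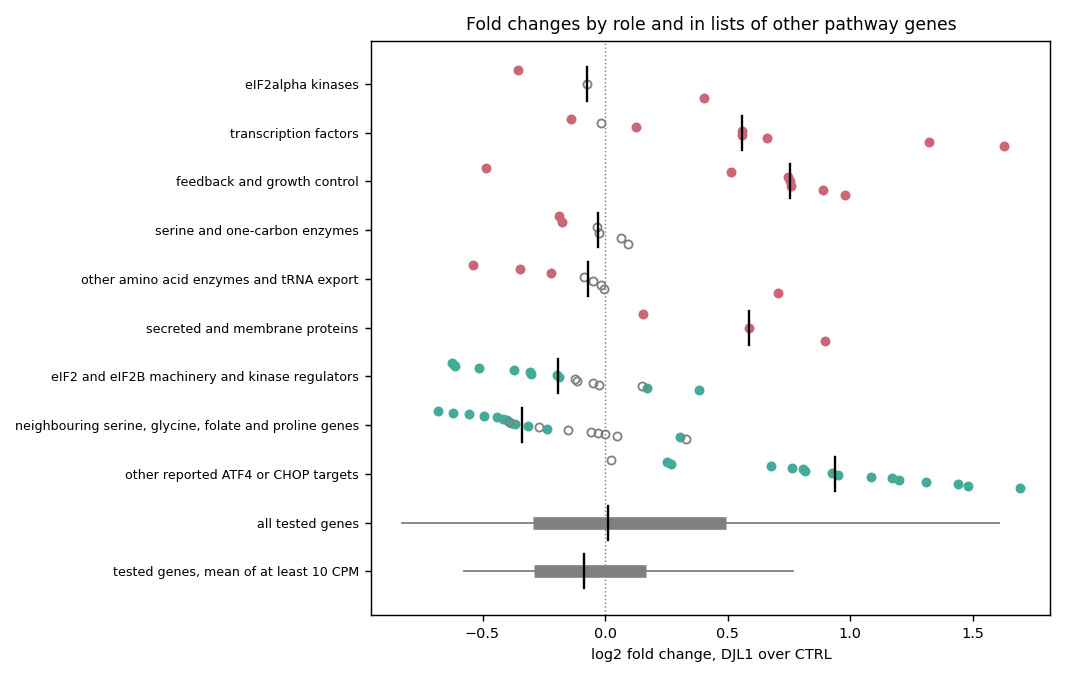
Log2 fold changes of DJL1 over CTRL (x axis) for the 6 roles of the set (red) and the 3 lists of other pathway genes (green), with 1 point per gene, open grey where not called and black bars at the medians. The 2 lowest rows show all tested genes, with the thick bar from the 25th to the 75th and the line from the 5th to the 95th percentile. The medians run from -0.34 for the neighbouring metabolic genes to 0.94 for the other reported targets.

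Markers of other cell types moved with the group. Summed over the list, 6 trophectoderm markers held 11.4 to 14.8 CPM in CTRL and 37.3 to 47.9 CPM in DJL1, with 6 of 6 called higher. Of 7 fibroblast markers 5 were tested and 4 were higher, with a sum of 405 to 416 CPM in CTRL and 669 to 784 CPM in DJL1, while the fibroblast-defining genes DCN and LUM had at most 6 counts in any library. Of 5 neural markers 5 were higher (447 to 463 and 527 to 565 CPM). TUBB3 held most of the neural sum, at 429 to 445 CPM in CTRL and 498 to 539 CPM in DJL1, and COL1A1 and COL1A2 held most of the fibroblast sum. The 6 pluripotency markers summed to 8379 to 8562 CPM in CTRL and 7386 to 8115 CPM in DJL1, with 5 of 6 lower. Of the 6 naive markers 4 were higher and 2 lower (330 to 335 and 361 to 418 CPM). The part of these shifts in the members' changes was not tested.

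The depth difference was removed in counts thinned to the smallest library, where 17 members were higher and 7 lower. In the authors' deposited table, whose fold changes had a slope of 0.997 against those computed here over 20189 genes, 19 members were higher and 7 lower at an adjusted p under 0.05. Calls differed for PHGDH and SHMT2, called higher in the authors' deposited table (0.08 and 0.11), and ALDH1L2, not called there (-0.16).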

How the data were processed

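Poly(A) RNA libraries were made with a directional kit, per the labels. Raw counts per gene symbol for 7 libraries (CTRL n = 4, DJL1 n = 3, grouped by title) were deposited by the authors and used unchanged. Per the submitters' processing notes the tools were HISAT2 2.2.1, Trim Galore 0.4.0, Subread 1.5.0 and featureCounts, on GRCh38 (hg38), with no roles stated. No source used here gives the counting mode or strand setting. The authors' deposited table gives log2 fold changes, p-values and a log odds score, per the file headers, and their test is not named. The deposited log values have no stated base and were not used.

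Genes passing edgeR's filterByExpr (minimum count 10, minimum total 15; 26062 of 59251) were scaled by TMM and tested by edgeR's 2-sided quasi-likelihood test with robust dispersion, Benjamini-Hochberg adjusted at 0.05 over all tested genes. Standard errors were derived from the F statistic. Levels per kilobase use the longest principal transcript of GENCODE release 29, and promoters and positions come from RefSeq (GRCh38.p14). The scripts were tested on simulated data. Versions were Python 3.11.15, DESeq2 1.42.0, edgeR 4.0.16 and limma 3.58.1 in R 4.3.3. Alternatives were DESeq2, limma-voom, limma-voom with a variance for each group, a filter of 1 CPM in 3 or more libraries (the stricter filter), no filter, scaling by library size alone or by relative log expression, thinning to the depth of the smallest library, a replicate block, and leaving out each library. The members, lists and rule for named genes were chosen with earlier results of these data known. The rule names all 35 members, gives library values for ATF4, the kinases and the 12 members with the smallest adjusted p, and from each other list takes up to 3 genes called in each direction (mean of at least 1 CPM), with EIF2AK2 and EIF2S1 in any case. Some genes that this rule takes from the other lists are not reported here.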

Additional observations from a re-analysis of the deposited data

Results flagged for a closer look

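NUPR1 in CTRL replicate 1 stood apart from the other CTRL libraries, at 3.34 CPM against 2.86 to 2.91 CPM, a gap of 0.909 of the group's whole range, above Dixon's critical value for 4 samples at 95%. It was the only 1 of 53 genes checked in this way, and chance alone flags about 1 gene in 20. All 3 DJL1 libraries were above it.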

How the results depend on the processing

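Under the 16 alternatives 15 members stayed called higher and 6 called lower in every analysis, and ATF4, PSAT1, PSPH, ASNS, GPT2, PCK2 and PYCR1 were called in none. Of 560 recomputed values of members, 530 kept their side of the threshold, 23 lost the call and 7 gained it. No called member changed sign, whereas 17 values of 6 uncalled members did (ATF4, PSAT1, PSPH, ASNS, GPT2 and PYCR1), with ASNS running from -0.40 to 0.25. The number of members higher ran from 15 to 19 and lower from 6 to 8. Leaving out each library gave 16 to 18 higher and 6 to 8 lower, and 1 to 2 higher genes in the eIF2 and eIF2B list, with 1 without CTRL replicate 2. With the replicate block 15 members were higher and 7 lower, ATF5, CEBPG and VLDLR losing the call. The numbers are not stated to pair the libraries, same-numbered libraries did not deviate together (r from -0.04 to -0.01), and 0 of 3 DJL1 libraries correlated best with their own number. The pairing therefore rests on the number alone. The stricter filter gave 19 higher and 6 lower, adding PHGDH and SHMT2. Under it the median log2 fold change of the members was 0.13, without a filter 0.06 and in the main analysis 0.10. The part of this shift in the changed calls was not tested. ASNS had 26 counts in the library where it was lowest. Its SE of 0.28 on the log2 scale was the widest of the set, so a small change in it could not be detected.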
